A study of Mus musculus with 12 samples.

Results

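Transcripts of 754 genes were counted in cells sorted as HSCs, haematopoietic stem cells, from the femur marrow of male mice, and the comparison described here sets ICH against sham surgery in mice without the beta-3 adrenergic receptor gene. Its members were chosen by the sample titles alone: 3 Adrb3-/- ICH libraries and 3 Adrb3-/- sham libraries, 6 of the 12 in the series. Both groups carry the Adrb3-/- genotype, and cells of both were taken 3 days after surgery, sorted straight into a phenol reagent, and used for total RNA. ICH, which the labels do not spell out, is the usual short form of intracerebral haemorrhage. The other 6 libraries came from wild-type C57/BL6 mice, 3 after ICH and 3 after sham surgery. The labels and protocols do not state the strain background of the Adrb3-/- mice, their age or the surface markers of the sort. By the design text 6 mice per genotype gave the 12 samples, which was read as 1 mouse for each library. The study's title asks what beta-3 adrenergic innervation does to marrow cells, and this comparison gives the response to ICH where that receptor is missing.

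Sympathetic nerves reach the bone marrow, where noradrenaline acts on beta-3 adrenergic receptors of stromal cells that hold stem cells in their niche. Resident macrophages are part of the same niche: they take up dying cells and expelled erythroblast nuclei, recycle haem iron and help to retain stem cells. They are recognised by the mannose receptor Mrc1, the haemoglobin scavenger receptor Cd163, the F4/80 antigen Adgre1 and the adhesion molecule Vcam1. Neutrophils are the most abundant maturing cells of marrow and fill their cytoplasm with the calprotectin subunits S100a8 and S100a9.

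The libraries are named by their label, and the sort could be checked on part of its markers only. Of 13 genes chosen as stem and progenitor markers, 5 were in the table (Kit, Cd34, Flt3, Gata2 and Cebpa), and the others were not analysed here, nor was Adrb3 itself, which leaves the genotype unchecked at its target. The 5 summed to between 929 and 3672 in Adrb3-/- ICH libraries, against 1756 to 2920 in Adrb3-/- sham libraries, in the deposited signal value, which is a count multiplied by 1 factor per library. S100a8 and S100a9 together took 46.9 to 55.3% of all gene counts in the ICH libraries and 23.2 to 49.4% in the sham libraries, with the lowest share in sham replicate 3. The 7 measured neutrophil markers summed to 250116 to 482410 in ICH and 82957 to 326895 in sham libraries. Signal of mature neutrophil markers thus far exceeded that of the measured progenitor markers in each library, and HSC is used here as the label's name. All 10 macrophage markers were in the table and all were measured in the sham libraries.

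The 6 libraries differed in quality. Genes with at least 20 counts summed to 450282, 110740 and 245553 counts in ICH replicates 1, 2 and 3, and to 442386, 435237 and 306535 counts in sham replicates 1, 2 and 3. A gene with under 20 counts carries an unscaled 20 in the table, which stands for a level under 38.4, 103 and 43.0 in the ICH replicates and under 29.7, 25.4 and 23.1 in the sham replicates. There were 104, 243 and 61 such genes in the ICH libraries and 40, 29 and 38 in the sham libraries. The mean of the negative control probes with 2 SD added, scaled by the library's factor, was 124, 85.0 and 46.8 in ICH replicates 1, 2 and 3. In the sham replicates this negative-control level was 42.5, 36.6 and 17.9. A value under it cannot be told from background. The strongest positive control gave 6278 counts in ICH replicate 1 and 23094 to 37908 counts in the other 5 libraries. Wild-type sham replicate 1, where it gave 79 counts, was left out of the fit, so the wild-type sham group has 2 libraries. Each ICH library had more genes under 20 counts than any sham library, and 20 lies below the level such a gene may have had, so these genes were also read with the value at its upper bound. The median log2 change (ICH minus sham) of all 674 genes tested was -0.16, and -0.04 over the 492 with at least 20 counts in all 6 libraries. Centring each library on its median moved that of the 674 genes to -0.04 and quantile normalization to 0.04, so a list's change is given beside that of all genes.

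The genes that fell after ICH in Adrb3-/- mice were genes that resident macrophages express. Of 674 genes tested, 7 passed the threshold (limma, Benjamini-Hochberg adjusted p under 0.05, two-sided), which is 1.04% of those tested, and all 7 were lower in Adrb3-/- ICH than in Adrb3-/- sham libraries: Mrc1, Apoe, Hpgds, Vcam1, Mertk, Adgre1 and Cd163. None was higher. With 1 library left out the count ranged from 0 to 50, as set out with the plot of counts by setting. Hpgds entered the test through the Adrb3-/- sham group where it was high, as given with its values. At an unadjusted p under 0.05 there were 64 lower genes (9.5% of those tested) and 9 higher ones (1.34%). With no change anywhere and 1 spread that held for all groups, 33.7 in all would be reached. The same fit gave 0 such genes for ICH against sham in wild-type mice, so no excess is read from 33.7. For each of the 7, every ICH library lay below every sham library, as it did for 46 of the 674 genes (6.82%); the opposite held for 11 (1.63%). In total RNA of a sorted pool, fewer macrophages and less of their RNA per cell cannot be told apart. The sum of the 10 macrophage markers was 2446, 2291 and 1069 in ICH replicates 1, 2 and 3, against 6706, 6607 and 12934 in the sham replicates, and each of the 10 markers had all its ICH values below all its sham values. Mrc1, Cd163, Adgre1, Vcam1 and Mertk are members of this sum and also passed, so the sum is not a readout separate from the calls. Its part in the other gene groups was not tested.

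**Figure D1:**
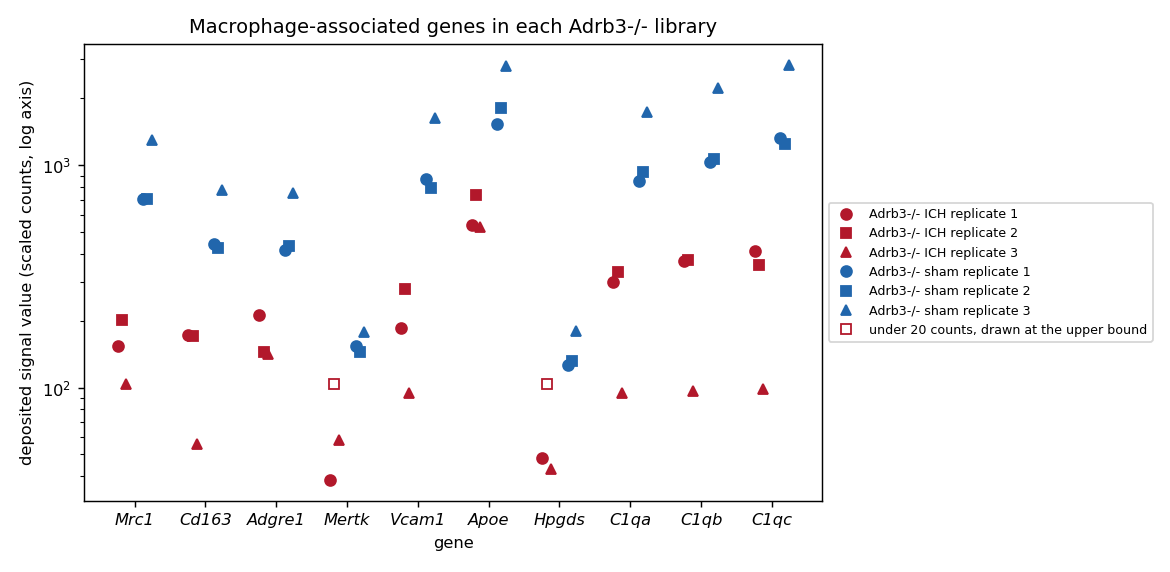
Deposited signal values (log axis) of 10 macrophage-associated genes in each of the 6 Adrb3-/- libraries, 1 point per library, with ICH libraries in red left of sham libraries in blue and open squares at the upper bound where a gene had under 20 counts. Each gene's 3 ICH points lie below its 3 sham points, sham replicate 3 is the highest for all 10, and ICH replicate 3 is the lowest of the measured ICH points for all but Mertk, by a narrow margin for Apoe, Adgre1 and Hpgds.

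Mrc1, a receptor that takes up mannosylated glycoproteins and microbes, showed the smallest p. Its signal was 153, 201 and 103 in the ICH replicates and 704, 704 and 1299 in the sham replicates. The highest ICH value was far below the lowest sham value. The means were 153 ± 49.0 in ICH and 902 ± 343 in sham libraries (SD, n = 3 each). The log2 change was -2.54 (SE 0.37, limma adjusted p = 0.0227).

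Cd163, through which macrophages clear haemoglobin bound to haptoglobin, had values of 173, 170.3 and 55.9 in the ICH replicates, against 443, 423 and 777 in the sham replicates. ICH replicate 3 stood well below the other ICH libraries, and sham replicate 3 above the other sham libraries. The log2 change was -2.14 (SE 0.43, limma adjusted p = 0.0483). Cd163 was the only measured gene of 12 chosen for iron and haem handling.

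Adgre1 encodes the F4/80 antigen, an adhesion receptor used to sort mouse macrophages. It had 211, 145 and 142 in the ICH replicates and 416, 435 and 753 in the sham replicates. The groups were apart by a wide margin, with a log2 change of -1.65 (SE 0.33, limma adjusted p = 0.0483). Vcam1, an adhesion molecule that binds integrins of blood cells and is carried by stromal cells and resident marrow macrophages, had 186, 279 and 94.7 in the ICH replicates and 872, 793 and 1633 in the sham replicates. Its log2 change was -2.61 (SE 0.48, limma adjusted p = 0.0395), the largest in size of the 7. Of the other stromal and endothelial genes, 0 of 14 passed, where 1.04% of all genes tested did, so this count does not set them apart. With Vcam1, 14 of the 15 tested were below 0, where 67.1% of all genes tested were. Their median log2 change was -0.53, and 0.08 with the values at 20 raised to what 20 counts are worth. Cxcl12 is the chemokine by which stromal cells hold stem cells. It had 514, 170.3 and 92.5 in the ICH replicates and 270.3, 238 and 191 in the sham replicates, which overlapped.

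Mertk, a receptor tyrosine kinase with which macrophages bind and engulf dying cells, had 38.4 and 58.1 in ICH replicates 1 and 3, was under 20 counts in ICH replicate 2, where this means a level under 103, and had 154, 145 and 178 in the sham replicates. The bound of 103 still lies below the lowest sham library. The value in ICH replicate 1 lay under that library's negative-control level of 124, so the size of the fall is uncertain. With the deposited 20 the log2 change was -2.12 (SE 0.40, limma adjusted p = 0.0395). With the value raised to what 20 counts are worth it was -1.35 (SE 0.37, limma adjusted p = 0.195), which ended the call. Of the other measured genes for the clearance of dying cells, the phosphatidylserine receptor Timd4 had 51.8, 114 and 81.8 in the ICH replicates and 151, 159 and 229.6 in the sham replicates, and did not pass (limma adjusted p = 0.19). The Timd4 value in ICH replicate 1 also lay under the level of 124. Anxa1, an annexin that promotes clearance and is abundant in neutrophils, had 2556, 2473 and 2468 in the ICH replicates and 2667, 2038 and 767 in the sham replicates, where the groups overlapped.

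Apoe, the lipid carrier that macrophages secrete, had 537, 733 and 527 in the ICH replicates against 1542, 1818 and 2798 in the sham replicates. Its log2 change of -1.74 (SE 0.27, limma adjusted p = 0.0227) was the most precise of the 7. Lpl, the lipoprotein lipase that frees fatty acids from such particles, had 199.5, 134 and 86.0 in the ICH replicates and 408, 351 and 519 in the sham replicates, which missed the threshold (log2 change -1.66, SE 0.41, limma adjusted p = 0.0887). Of 21 genes chosen for lipid handling and secreted macrophage factors, 11 were in the table and tested: all 11 had a log2 change below 0, with a median of -0.86, where 67.1% of all genes tested were below 0 and the median was -0.16. Only Apoe passed. Lipa, the lysosomal acid lipase, had 238, 284 and 252 in the ICH replicates and 373, 384 and 717 in the sham replicates, with no overlap. For Cd36, a scavenger receptor for fatty acids and oxidised lipoproteins, the groups overlapped, at 234, 129 and 64.5 in the ICH replicates and 229, 255 and 159 in the sham replicates.

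Hpgds makes prostaglandin D2 in macrophages, mast cells and other haematopoietic cells. It had 48.0 and 43.0 in ICH replicates 1 and 3, under 103 in ICH replicate 2, and 126, 132 and 179.9 in the sham replicates. The values in ICH replicates 1 and 3 lay under their negative-control levels of 124 and 46.8, so the size of the fall is uncertain. The deposited values gave a log2 change of -2.03 (SE 0.36, limma adjusted p = 0.0395). With the value in ICH replicate 2 at its bound the change was -1.26 (SE 0.36, limma adjusted p = 0.198), so this call, like that of Mertk, rests on the value at 20. Hpgds also passed the background filter of 52.2 through the Adrb3-/- sham group. Its mean there was 146, against 37.0 in Adrb3-/- ICH, 50.4 in wild-type ICH and 52.8 in wild-type sham libraries. The filter thus favoured its call. Hpgd, which inactivates prostaglandins, had 436, 196 and 120.5 in the ICH replicates and 490.1, 451 and 749.8 in the sham replicates, apart by a small margin and short of the threshold (limma adjusted p = 0.3). Alox5ap, the protein that presents arachidonic acid to 5-lipoxygenase, had 2059, 1156 and 979 in the ICH replicates and 948, 919 and 543 in the sham replicates (log2 change 0.77, SE 0.32, limma adjusted p = 0.428). Of the 14 tested prostaglandin and leukotriene genes 8 were below 0 and 6 above, with a median log2 change of -0.10 that turned to 0.02 with median centring and 0.16 with quantile normalization.

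The 3 chains of C1q, the recognition protein of the classical complement pathway that macrophages secrete, showed changes as large as those of the genes that passed, with more spread between the libraries. C1qc had 413, 356 and 99.0 in the ICH replicates and 1329, 1241 and 2835 in the sham replicates. C1qb had 372, 377 and 96.8 in the ICH replicates and 1035, 1065 and 2233 in the sham replicates. C1qa had 297, 330.4 and 94.7 in the ICH replicates and 849.5, 935 and 1733 in the sham replicates. For all 3 chains the ICH libraries lay below the sham libraries, with ICH replicate 3 the lowest and sham replicate 3 the highest of the 6. The log2 changes were -2.77 (SE 0.60) for C1qc, -2.49 (SE 0.56) for C1qb and -2.40 (SE 0.56) for C1qa, with limma adjusted p of 0.0699, 0.0762 and 0.0813, just outside the threshold. With 1 Adrb3-/- library left out the limma adjusted p of C1qc lay between 0.0405 and 0.351, passing without ICH replicate 1 (log2 change -3.15) or ICH replicate 3 (-2.12), and highest without sham replicate 3 (-2.39). C1qb also passed only when ICH replicate 1 or ICH replicate 3 was the Adrb3-/- library left out, and C1qa did not pass whichever of the 6 was left out. The ratio of the C1qa to the C1qb value was 0.799 to 0.978 in the ICH libraries and 0.776 to 0.878 in the sham libraries, which overlapped. That of C1qc to C1qb was 0.945 to 1.11 in the ICH libraries and 1.17 to 1.28 in the sham libraries, which did not. The ratios were not tested, and 3 against 3 libraries without overlap give no two-sided p below 0.1 (exact permutation test). No change in the balance of the chains is read from them. The 3 genes lie side by side on mouse chromosome 4 (GRCm38.p6), C1qb at 136880126 to 136886200, C1qc at 136889801 to 136892936 and C1qa at 136895916 to 136898844.

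The promoters of genes that were lower are shown for description only. These genes were picked for a difference between the same 6 libraries, so they move together by that choice. Shared regulation was not tested. RefSeq promoter sequences of GRCm38.p6 were found for 7 of 10 genes looked up (the 7 that passed and the C1q chains), and 3 are printed, 5′ to 3′ on the gene's strand, as the 250 bases before the start of transcription. Capitals mark the ETS core, which reads GAGGAA on one strand and therefore TTCCTC on the other and is a short form of the element bound by ETS factors in myeloid genes, and the MAF core, which reads TGCTGA on one strand and therefore TCAGCA on the other. Mrc1 is on the plus strand (chr2:14229164-14229413), Cd163 on the plus strand (chr6:124304401-124304650) and C1qb on the minus strand (chr4:136886201-136886450).
Mrc1: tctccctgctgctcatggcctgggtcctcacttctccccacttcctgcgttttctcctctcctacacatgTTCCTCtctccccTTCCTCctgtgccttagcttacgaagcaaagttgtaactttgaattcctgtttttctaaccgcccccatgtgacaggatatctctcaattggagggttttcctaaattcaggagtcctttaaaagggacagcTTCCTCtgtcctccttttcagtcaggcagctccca
Cd163: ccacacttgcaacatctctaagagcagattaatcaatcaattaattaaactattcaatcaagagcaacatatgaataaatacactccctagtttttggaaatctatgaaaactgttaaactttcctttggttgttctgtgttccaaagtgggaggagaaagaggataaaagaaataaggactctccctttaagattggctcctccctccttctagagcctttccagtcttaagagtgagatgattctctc
C1qb: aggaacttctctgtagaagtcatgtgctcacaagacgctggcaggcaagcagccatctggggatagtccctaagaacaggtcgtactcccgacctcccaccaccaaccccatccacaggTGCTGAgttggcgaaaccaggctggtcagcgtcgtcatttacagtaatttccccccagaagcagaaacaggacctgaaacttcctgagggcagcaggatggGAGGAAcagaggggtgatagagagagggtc
The Mrc1 window held 3 matches to the ETS core, which begin 180, 167 and 35 bases before the start. The C1qb window held 1 match to the ETS core, 30 bases before the start, and 1 to the MAF core, 131 bases before it, and these do not overlap. The Cd163 window held neither. Over 32851 promoter windows of the same 250 bases, 23.3% held the ETS core and 16.1% the MAF core, so a single match is common, and matches are given as letters in a window, not as sites in use.

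Among 15 tested macrophage surface genes, of 22 chosen and 15 in the table, 13 were below 0 and 2 above. Of all genes tested 67.1% were below 0 and 1.04% passed. The median log2 change of the list was -1.04, against -0.16 over all genes tested, and 4 passed, all lower: Mrc1, Cd163, Adgre1 and Mertk. With the values at 20 raised to what 20 counts are worth, the median was -0.80 with 3 passing, and without sham replicate 3 it was -0.98 with 0 passing. Cd68, the lysosomal membrane glycoprotein used to stain macrophages, had 466, 294 and 234 in the ICH replicates and 714, 701 and 1240.0 in the sham replicates, with no overlap, and missed the threshold (log2 change -1.42, SE 0.32, limma adjusted p = 0.0776). Csf1r, the receptor for the growth factor on which macrophages depend, had 372, 139 and 125 in the ICH replicates and 389, 351 and 418 in the sham replicates. Here ICH replicate 1 overlapped the sham libraries. Fcgr1, a high-affinity receptor for IgG shared with monocytes, also overlapped, at 194, 149.7 and 45.2 in the ICH replicates and 151, 144 and 247 in the sham replicates. Its value in ICH replicate 3 lay under that library's negative-control level of 46.8.

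Lysosomal genes, which macrophages express to digest what they engulf, were below 0 in 7 of 7 tested members, where 67.1% of all genes tested were. Their median log2 change was -0.86, against -0.16 for all genes; 3 members were lower at an unadjusted p under 0.05, as were 9.5% of all genes, and 0 passed. Ctsd, the aspartic protease of lysosomes, had 2698, 1982 and 1517 in the ICH replicates and 4007, 3767 and 6840.3 in the sham replicates, with no overlap (log2 change -1.22, SE 0.32, limma adjusted p = 0.12). Ctss, a cysteine protease that also trims the invariant chain for antigen presentation, had 961, 434 and 239 in the ICH replicates and 729, 776 and 1189 in the sham replicates, which overlapped. Cd68 and Lipa, described above, belong to this list as well.

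MHC class II and costimulation genes, by which macrophages, dendritic cells and B cells present antigen to T cells, were below 0 in 12 of 12 tested members, each measured with at least 20 counts in all 6 libraries. Among all genes tested 67.1% were below 0. The median log2 change of the list was -0.68, against -0.16 for all genes; 4 members were lower at an unadjusted p under 0.05, as were 9.5% of all genes, and 0 passed. H2-Ab1, a class II beta chain, had 800.1, 521 and 538 in the ICH replicates and 904, 1240.0 and 1576 in the sham replicates, with no overlap (log2 change -0.99, SE 0.39, limma adjusted p = 0.423). H2-Eb1 had 393, 206 and 237 in the ICH replicates and 382, 529.8 and 745 in the sham replicates, where ICH replicate 1 overlapped sham replicate 1. Cd74, the invariant chain, had 4493, 1554 and 1971 in the ICH replicates and 3312, 4857 and 6476 in the sham replicates, and overlapped in the same way. The genes of MHC class I and its antigen processing were split, with 6 of 13 below 0 and 7 above, a median of 0.04 and 0 at either an adjusted or an unadjusted p under 0.05. The immunoproteasome subunit Psmb9, for example, had 372, 294 and 383 in the ICH replicates and 211, 266 and 329.9 in the sham replicates (log2 change 0.39, SE 0.26, limma adjusted p = 0.565).

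**Figure D2:**
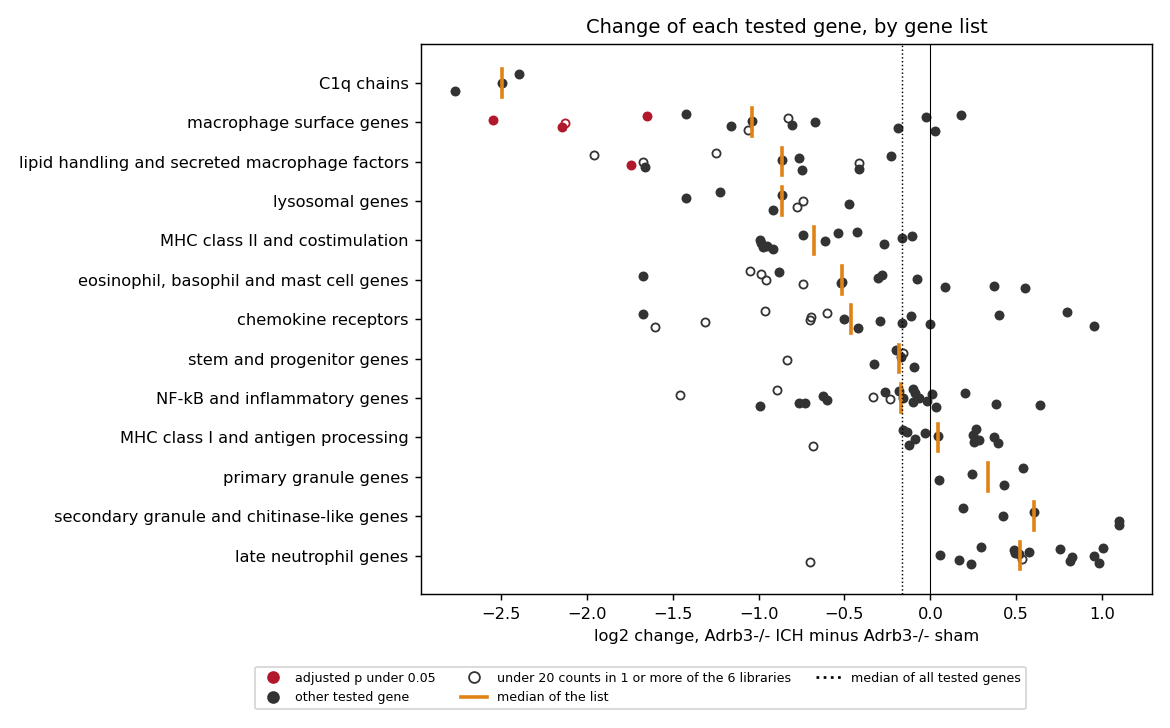
Log2 change of each tested gene (Adrb3-/- ICH minus Adrb3-/- sham, horizontal axis) for 13 gene lists, 1 point per gene, with genes past the threshold in red, genes under 20 counts in 1 or more of the 6 libraries open, the list's median in orange and the median of all genes tested (-0.16) dotted. The medians of the C1q, macrophage surface, lipid, lysosomal and MHC class II lists, between -2.49 and -0.68, lie to the left of the dotted line, and those of the granule and late neutrophil lists, between 0.34 and 0.60, to its right, with single members of some lists on the other side.

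Genes of neutrophils lay above 0 after ICH, but none passed. Of 16 late neutrophil genes, 15 had a log2 change above 0, where 32.9% of all genes tested did. Their median was 0.52, against -0.16 for all genes tested. Of the 16, 4 were higher at a limma unadjusted p under 0.05, as were 1.34% of all genes tested. Csf3r, the receptor for granulocyte colony-stimulating factor, had 957, 692 and 460.4 in the ICH replicates and 438, 443 and 280.3 in the sham replicates. All 3 ICH libraries lay above the sham libraries, ICH replicate 3 by a small margin, and the log2 change was 0.83 (SE 0.31, limma adjusted p = 0.376). Cxcr2, the chemokine receptor that draws neutrophils out of the marrow, had 535, 315 and 249.6 in the ICH replicates and 199, 263 and 109.6 in the sham replicates. Mmp9, a gelatinase of neutrophil granules, had 1276, 527 and 473 in the ICH replicates and 487, 384 and 209.9 in the sham replicates. Both overlapped by 1 library on each side, at log2 changes of 0.95 (SE 0.40) and 1.0 (SE 0.41), each with a limma adjusted p of 0.428. Fpr2, a formyl peptide receptor, had 1278, 795 and 544 in the ICH replicates and 640.1, 515 and 217 in the sham replicates. C5ar1, the receptor for complement fragment C5a, had 837, 449 and 493 in the ICH replicates and 466, 393 and 146 in the sham replicates. In these genes ICH replicate 1 was the highest library and sham replicate 3 the lowest.

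Genes of the granule lists lay above 0 as well, where 32.9% of all genes tested did. Of 5 secondary granule and chitinase-like genes, 5 were above 0, with a median log2 change of 0.60. These were Ltb4r1, Cybb, Camp, Mmp8 and Chil3. Ltb4r1 is a leukotriene receptor and not a granule protein, stands in the prostaglandin and leukotriene list as well, and had the smallest change of the 5 (0.19). Of 4 primary granule genes (Mpo, Elane, Nkg7 and Ctsg), 4 were above 0, with a median of 0.34. The median of all genes tested was -0.16. In either list 0 reached a limma unadjusted p under 0.05. Chil3, a chitinase-like protein of maturing neutrophils and some macrophages, had 32997, 12487 and 8973 in the ICH replicates and 13754, 8749 and 3119 in the sham replicates (log2 change 1.10, SE 0.56, limma adjusted p = 0.481). Camp, the cathelicidin peptide of secondary granules, had 33377, 24539.7 and 29101 in the ICH replicates and 33074, 23878 and 8648 in the sham replicates, so only sham replicate 3 stood apart. Elane, the elastase of primary granules, had 4576, 3954 and 3619 in the ICH replicates and 5333, 3889 and 1903 in the sham replicates, with the highest value in a sham library. Without sham replicate 3, the library with the smallest S100a8 and S100a9 share, the median was 0.15 for late neutrophil genes with 12 of 16 above 0, was 0.06 for secondary granule genes with 4 of 5 above 0, and was -0.03 for primary granule genes with 2 of 4 above 0. The sum of the 7 measured neutrophil markers was 482410, 286346 and 250116 in the ICH replicates and 326895, 247058 and 82957 in the sham replicates, which overlapped.

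**Figure D3:**
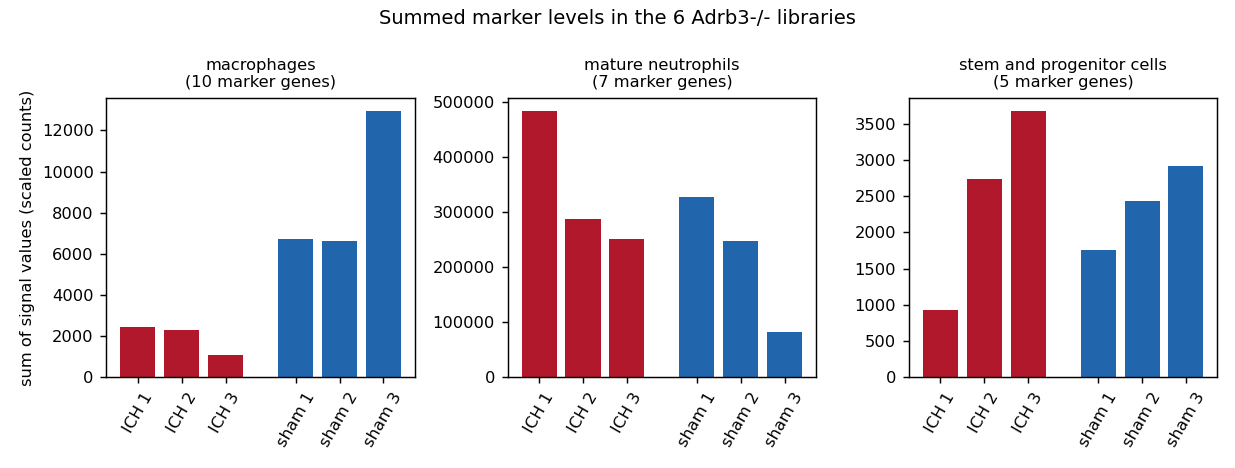
Summed signal values (vertical axes from 0, on a scale of their own in each panel) of the markers of macrophages, mature neutrophils, and stem and progenitor cells in each Adrb3-/- library, with ICH replicates in red and sham replicates in blue. Macrophage sums are 1069 to 2446 in ICH and 6607 to 12934 in sham libraries, while the ICH and sham bars overlap in the other panels.

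Outside the neutrophil lists, Mapk13, a p38 kinase isoform, had the smallest p among higher genes. It had 336, 268 and 224 in the ICH replicates and 205, 163 and 86.5 in the sham replicates, with no overlap, at a log2 change of 0.93 (SE 0.33, limma adjusted p = 0.327). Bcl6, a transcriptional repressor of lymphoid and myeloid cells, had 76.8, 129 and 60.2 in the ICH replicates and 57.9, 47.0 and 48.5 in the sham replicates, again with no overlap and a narrow margin. Its value in ICH replicate 1 lay under that library's negative-control level of 124. Batf3, a factor of dendritic cell development, had 727 in ICH replicate 1 and 237 and 164 in replicates 2 and 3, against 190.1, 201 and 122 in the sham replicates, so its mean change of 0.86 on the log2 scale (SE 0.47, limma adjusted p = 0.536) came mostly from 1 library.

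Of the genes chosen as stem and progenitor markers, 6 were tested, and none reached an unadjusted p under 0.05. Kit, the stem cell factor receptor, was under 20 counts in ICH replicate 1, where this means a level under 38.4, had 227 and 293 in ICH replicates 2 and 3, and had 154, 216 and 234 in the sham replicates. Cd34, a surface sialomucin of progenitors, had 297, 1234 and 1880.3 in the ICH replicates and 676, 1063 and 1452 in the sham replicates. Gata2, a transcription factor needed by stem cells, had 86.3, 676 and 807 in the ICH replicates and 374, 493 and 509 in the sham replicates. Its value in ICH replicate 1, like that of Kit, lay under that library's negative-control level of 124. For all 3 genes ICH replicate 1, the library with the weak positive controls, was the lowest of the 6, and ICH replicate 3 the highest. Flt3, a cytokine receptor of multipotent and lymphoid progenitors, followed the same order, with 149.7, 320.0 and 424 in the ICH replicates and 208, 361 and 385 in the sham replicates. Cebpa, a factor of granulocyte and monocyte commitment, varied little, at 376, 284 and 269 in the ICH replicates and 343, 301 and 339 in the sham replicates. The median of the 6 tested stem and progenitor genes was -0.18 on the log2 scale with 6 of 6 below 0, and 0.48 with 5 of 6 above 0 without ICH replicate 1, so their direction rests on that library.

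The eosinophil genes Ccr3 and Prg2 stood on the side of the macrophage genes. The sum of the 4 eosinophil markers was 955 to 1404 in Adrb3-/- ICH libraries and 1867 to 2743 in Adrb3-/- sham libraries, with no overlap. Prg2 gave most of it in each of these libraries. In wild-type sham replicates 2 and 3 the same sum was 6927 and 1371, a wider spread than that across the Adrb3-/- libraries. Ccr3, the eotaxin receptor of eosinophils, had 117, 145 and 103 in the ICH replicates and 296, 313 and 622 in the sham replicates, and was the first gene outside the threshold (log2 change -1.67, SE 0.36, limma adjusted p = 0.0686). Its value in ICH replicate 1 lay under that library's negative-control level of 124, so the size of the fall is uncertain. Prg2, the major basic protein of eosinophil granules, had 856, 1032 and 709.9 in the ICH replicates and 1349, 2184 and 1327 in the sham replicates (log2 change -0.88, SE 0.60, limma adjusted p = 0.578). Of 14 tested eosinophil, basophil and mast cell genes, 11 were below 0 with a median of -0.52, 3 at an unadjusted p under 0.05 and 0 passing. Among all genes tested 67.1% were below 0, with a median of -0.16, and 9.5% were lower at a limma unadjusted p under 0.05. With the values at 20 raised to what 20 counts are worth, the median of the list was -0.13 with 8 of 14 below 0. With quantile normalization it was -0.07 with 7 of 14. Hdc, the histamine-forming enzyme of basophils and mast cells that neutrophils also express, had 280.1, 248 and 232 in the ICH replicates and 257, 164 and 121 in the sham replicates.

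Inflammatory genes did not stand apart from the rest. Of 22 tested NF-kB and inflammatory genes, 17 were below 0 and 5 above, with a median log2 change of -0.17, close to that of all genes tested. At a limma unadjusted p under 0.05 there were 3, all lower, and 0 passed. Among all genes tested 67.1% were below 0 and 9.5% were lower at that unadjusted p. The median of the list was -0.04 without ICH replicate 1, -0.51 without sham replicate 3 and 0.00 with quantile normalization. Cd83, a surface marker of activated antigen-presenting cells, had 111, 134 and 79.6 in the ICH replicates and 247, 186 and 206 in the sham replicates, with no overlap (log2 change -0.99, SE 0.34, limma adjusted p = 0.3). Il18, a cytokine that macrophages hold as a precursor, had 117, 243 and 198 in the ICH replicates and 264, 286 and 367 in the sham replicates, again with no overlap (log2 change -0.76, SE 0.29, limma adjusted p = 0.376). Cd83 and Il18 in ICH replicate 1 lay under that library's negative-control level of 124, so the size of either fall is uncertain. The rapidly induced genes varied among replicates of both groups: Tnfaip3, which damps NF-kB signalling, had 188, 635 and 260.3 in the ICH replicates and 1022, 595 and 234 in the sham replicates. Ccl3, a chemokine of activated myeloid cells, had 282, 635 and 493 in the ICH replicates and 1202, 692 and 388 in the sham replicates.

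The wild-type libraries show what ICH was associated with where the receptor gene is intact. In wild-type mice, with 3 ICH and 2 sham libraries, 0 of 674 genes (0%) passed for ICH against sham (limma), and 0 reached an unadjusted p under 0.05. The spread behind that test is shared with the Adrb3-/- libraries, and the 7 genes had log2 changes between -0.07 and 0.29. Mrc1 stood at -2.54 (SE 0.37) in Adrb3-/- and -0.07 (SE 0.42) in wild-type mice, a difference between genotypes of -2.47 (SE 0.56). Vcam1 stood at -2.61 (SE 0.48) in Adrb3-/- and 0.29 (SE 0.53) in wild-type mice, a difference of -2.89 (SE 0.71). The difference itself did not pass for any gene: the smallest adjusted p was 0.454 (limma), shared by the 7 genes and the C1q chains among others, and 29 of 674 (4.3%) reached an unadjusted p under 0.05. A call in Adrb3-/- mice beside none in wild-type mice is therefore not shown to be a difference between the genotypes. The macrophage marker sum was 1069 to 2446 in Adrb3-/- ICH, 6607 to 12934 in Adrb3-/- sham and 3240 to 4426 in wild-type ICH libraries, and was 4746 and 2104 in wild-type sham replicates 2 and 3. The wild-type libraries of both treatments thus lay between the Adrb3-/- ICH and Adrb3-/- sham ranges, apart from wild-type sham replicate 3, which lay within the Adrb3-/- ICH range.

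**Figure D4:**
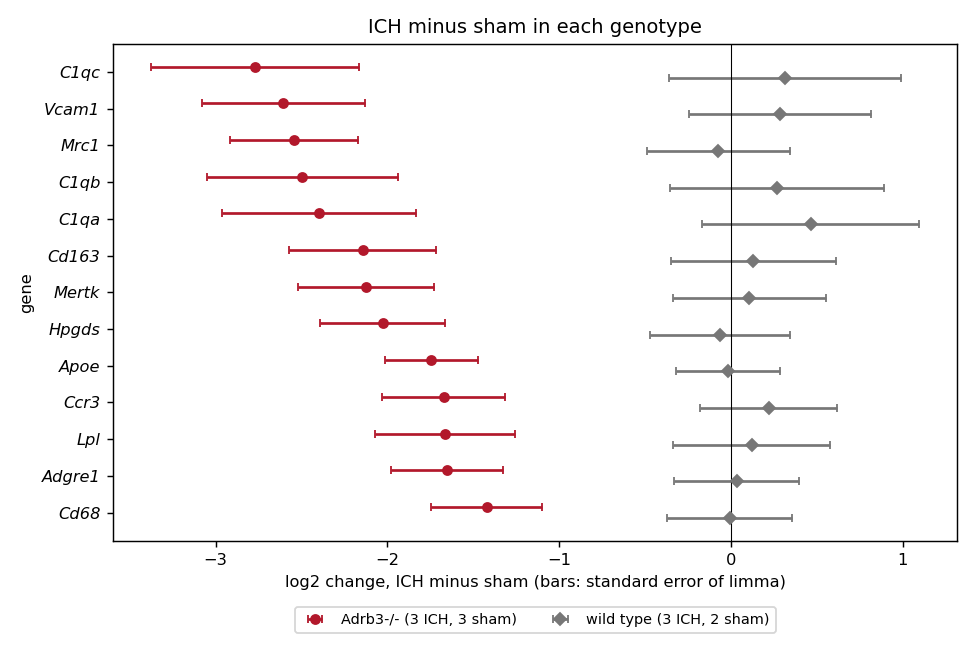
Log2 change after ICH against sham for 13 genes in Adrb3-/- mice (red circles, 3 ICH and 3 sham libraries) and in wild-type mice (grey diamonds, 3 ICH and 2 sham libraries), with bars for the standard error of the limma fit. The Adrb3-/- points run from -2.77 to -1.42 and the wild-type points lie near 0 with bars across it, and for none of the 13 did the difference between genotypes pass the threshold.

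How many genes passed depended on which libraries and settings shared the fit, while each of the 7 stayed lower after ICH wherever it was tested. The 7 became 23 without ICH replicate 1, 3 without ICH replicate 2 and 50 without ICH replicate 3. They became 2 without sham replicate 1, and 0 without sham replicate 2, sham replicate 3 or any 1 of the wild-type ICH libraries, which enter only through the shared spread. All 7 were among the 23 and among the 50. Fitting only the 6 Adrb3-/- libraries left 0 calls, with 43 lower genes at an unadjusted p under 0.05, and the same changes. With 3 libraries in each group an exact permutation test of a single gene cannot give a two-sided p below 0.1, so the calls rest on the spread shared across genes and groups. Without ICH replicates 1 and 2, the libraries with weak positive controls and low depth, the ICH group is 1 library assumed to vary like the other groups; 14 genes then passed, 4 of the 7 among them. Without ICH replicate 1 and sham replicate 3, 0 passed, with Mrc1 at -2.28 (SE 0.42, limma adjusted p = 0.0847). Both of these settings were chosen after the data were seen.

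**Figure D5:**
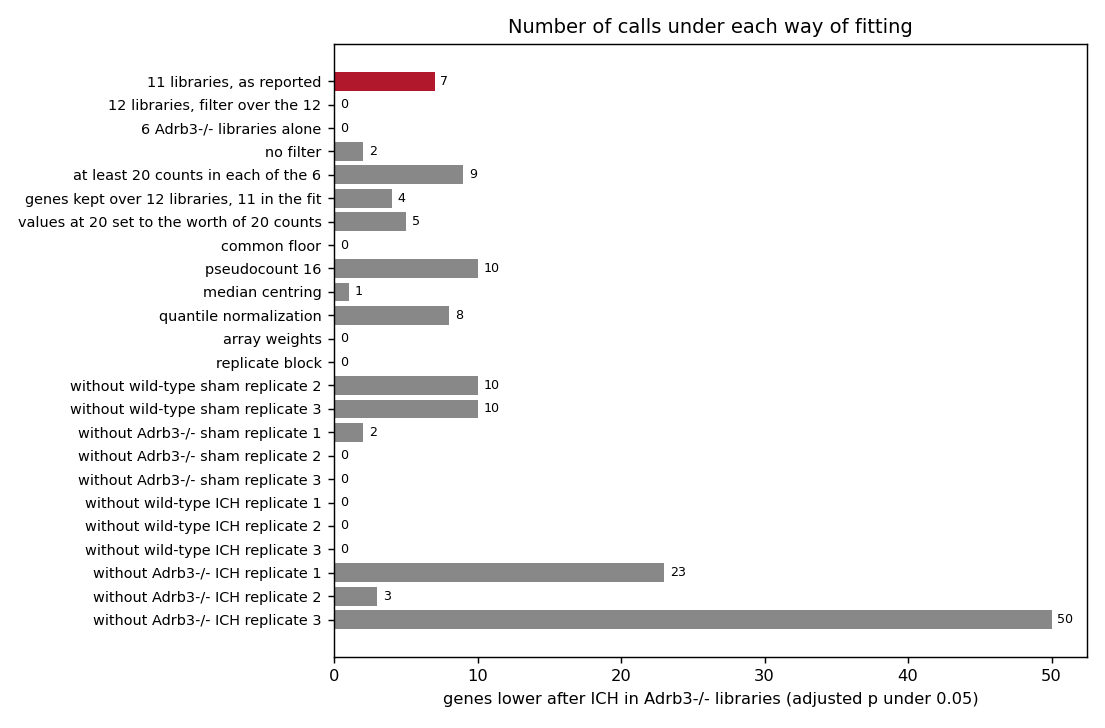
Number of genes lower after ICH in Adrb3-/- libraries at an adjusted p under 0.05 (horizontal axis, from 0) under each way of fitting, with the reported fit in red. The count is 7 as reported, 50 without ICH replicate 3, 23 without ICH replicate 1, and 0 without sham replicate 2 or 3 or in the Adrb3-/- libraries alone.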

How the data were processed

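The deposited signal values are a table of 754 genes, 8 negative and 6 positive control probes in 12 libraries. Neither the labels nor the table state the instrument, the panel or the scaling. From the values, the authors' signal of a gene is a whole number of counts (within 0.00458 of whole in 11 libraries, tested up to 1000 counts) multiplied by 1 factor per library, genes under 20 counts carry an unscaled 20, and the control probes are unscaled. A value of 20 hides its count, which bars a count model, and the signal was taken as scaled. Precision is set by the counts and by the spread between libraries. No pair of replicates came close to being duplicates (chi-square over its degrees of freedom of at least 7.34), and the 6 libraries correlated at r between 0.838 and 0.981 across genes. Nothing beyond the mouse numbers says how the mice were allotted, so p-values measure the spread between these libraries.

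Genes were kept when their mean over 11 libraries (all but wild-type sham replicate 1) exceeded a background of 52.2, which is the negative controls' mean with 2 SD added, scaled by each library's factor and averaged. This kept 674 genes and removed 80. In R 4.3.3, limma 3.58.1 (lmFit, eBayes) was run on log2(value + 1) with 1 mean for each of the 4 groups and 7 residual degrees of freedom, and p-values were adjusted by Benjamini-Hochberg over the 674 genes, threshold 0.05. The log2 changes are on the log2(value + 1) scale, where the added 1 slightly understates those of low genes. A value held at 20 in an ICH library may overstate a fall by more. Raised to the worth of 20 counts, Mertk moved from -2.12 to -1.35 and Hpgds from -2.03 to -1.26. The script was tested on simulated data. The members and gene lists were chosen with earlier results of these data known. Lists are described by counts and medians, without a test, and a gene may stand in more than 1. Genes named with values are those past the threshold, the 10 with the smallest p in each direction and the 3 largest changes of each list (with at least 20 counts in the 6 libraries), the C1q chains and the progenitor markers. Alternatives covered the libraries, the filter, the values at 20, the added constant (1 or 16), centring, quantile normalization, library weights, the replicate number as a block, and each library left out. Gene symbols were matched to RefSeq on GRCm38.p6, where 744 are current, 9 are older names and 1 is neither.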

Additional observations from a re-analysis of the deposited data

How the results depend on the processing

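The count of lower genes was 7 as reported and ranged from 0 to 50 with 1 library left out (10 without wild-type sham replicate 2 or 3). It was 0 with 12 libraries (22 at an unadjusted p under 0.05), in the Adrb3-/- libraries alone (43), with every value raised to a common floor (38), with library weights, whose estimation stopped before converging (63), and with the replicate number as a block (53). It was 1 with median centring, 2 with no filter, 4 with the genes kept over 12 libraries, 5 with the values at 20 raised to what 20 counts are worth, 8 with quantile normalization, 9 among genes with 20 counts in all 6 libraries and 10 with 16 added. Of settings chosen after the data were seen, a mean-variance trend gave 12 (all 7 among them), leaving out ICH replicates 1 and 2 gave 14 (a single ICH library, assumed to vary like the other groups), and leaving out ICH replicate 1 and sham replicate 3 gave 0. The replicate numbers were not taken as a pairing, since same-numbered ICH and sham libraries deviated together at correlations of 0.152, -0.0323 and 0.142. No setting gave a higher gene (limma; 9 at an unadjusted p under 0.05 as reported, 0 to 28 otherwise). The difference between genotypes ranged from 0 to 1 gene with 1 library left out: Irf8, a monocyte and dendritic cell factor, without wild-type sham replicate 2, and Serpinb9, a granzyme inhibitor held at 20 in ICH replicates 1 and 2, without Adrb3-/- ICH replicate 3, both named after their values were seen. It was 0 genes in the other settings. No causes were tested. Across settings other than left-out libraries the log2 change of Mrc1 lay between -2.54 and -2.39, that of Apoe between -1.74 and -1.62, Vcam1 between -2.61 and -2.45, Adgre1 between -1.65 and -1.52 and Cd163 between -2.14 and -1.85. Those of Mertk (-2.12 to -0.61) and Hpgds (-2.03 to -0.48) followed the treatment of values at 20. Signs turned for Cd34 (0.14) and Gata2 (0.0084) with library weights and Cebpa (0.025) with median centring. With 1 library left out the log2 change ranged over both signs for Cd34 (-0.74 to 0.59), Cxcl12 (-0.87 to 0.36), Elane (-0.18 to 0.57), Flt3 (-0.49 to 0.26), Gata2 (-0.91 to 0.70), Jun (-1.24 to 0.16) and Kit (-1.53 to 0.38), none of which passed. Without ICH replicates 1 and 2 it was -0.031 for Batf3, 0.89 for Cd34, -0.022 for Ctsg, 0.46 for Flt3, 0.83 for Gata2 and 0.56 for Kit. Without ICH replicate 1 and sham replicate 3 it was -0.25 for Alox5, -0.073 for Camp, 0.84 for Cd34, -0.051 for Chil3, -0.059 for Ctsg, -0.27 for Elane, 0.43 for Flt3, 0.78 for Gata2, 0.49 for Kit and -1.01 for Cxcl12. With 1 library left out the highest change was 0.76 for Alox5, 1.0 for Camp, 1.57 for Chil3 and 0.82 for Ctsg. Depth limits genes under 20 counts most in ICH replicate 2.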

Other observations

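The interferon, chemokine ligand, cell cycle, Toll-like receptor and immediate early gene groups held no gene that passed for ICH against sham in Adrb3-/- libraries (limma). Of 12 interferon response, 24 chemokine ligand and 8 replication and cell cycle genes tested, 0, 1 and 0 reached an unadjusted p under 0.05. Their median log2 changes were -0.17, -0.27 and -0.05, beside -0.16 for all genes tested. Among all genes tested 67.1% were below 0, and 9.5% were lower at a limma unadjusted p under 0.05. Of 12 Toll-like receptor pathway genes, 11 were below 0, with a median of -0.20 and 0 at an unadjusted p under 0.05. None of the 15 genes chosen for adrenergic and cAMP signalling was analysed here, and of 13 tested immediate early and cAMP inducible genes 10 were below 0, with a median of -0.26 and 0 at an unadjusted p under 0.05. Jun, a rapidly induced transcription factor, had 246, 1724 and 1018 in the ICH replicates and 1282, 1648 and 787 in the sham replicates, which overlapped.

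Ctsg, cathepsin G of primary granules, had 3204, 2891 and 1695 in the ICH replicates and 2535, 2099 and 959 in the sham replicates (log2 change 0.54, SE 0.41, limma adjusted p = 0.639). Nkg7, a granule membrane protein of cytotoxic and myeloid cells, had 518, 444 and 426 in the ICH replicates and 441, 358 and 253 in the sham replicates (log2 change 0.43, SE 0.25, limma adjusted p = 0.55). In both the groups overlapped, with sham replicate 3 the lowest library.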
